A study of Rattus norvegicus with 9 samples.

Results

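The levels of 10 cartilage matrix genes were followed in RNA sequencing of rat knee cartilage: Acan, Hapln1, Matn1, Matn3, Comp, Chad, Cnmd, Ucma, Cilp, and Cilp2. The genes were chosen by name from the 32043 genes of the table, each name stood on 1 entry, and all 10 were among the 13898 genes with a mean of at least 0.5 FPKM over the 9 libraries. FPKM is fragments counted per kilobase of gene and scaled to a size of the library, so levels of different genes can be compared per length. The animals were male Sprague-Dawley rats, 8 weeks old when purchased, and every animal had the left knee opened. Samples were collected 8 weeks after the surgery. Controls had no more than an opening of the capsule, which was then closed. In the model group knee osteoarthritis (KOA) was induced by the modified Hulth method, which destabilizes the joint by surgery on its ligaments (the anterior cruciate and the medial collateral) and medial meniscectomy, with forced daily exercise for 4 weeks afterwards. SYD-H animals were operated on in the same way and then received an extract of Shengyu decoction (SYD) by gavage for 4 weeks. It was the highest of 3 doses in the study's text, while the sample titles name only SYD. The deposited columns of this group are headed CXTB. The study's text does not use that name, and abbreviates its positive-control drug as CXB. Each group had 3 libraries. The labels give the tissue as cartilage, although their extraction text speaks of retina, and no source used here states whether a library came from 1 animal or from pooled tissue. The p-values therefore measure the spread between these libraries only, which may be technical.

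Hyaline cartilage is a water-rich gel held by a collagen network, and chondrocytes make both. Aggrecan, the product of Acan, is a large proteoglycan whose chondroitin sulfate chains draw in water. The link protein Hapln1 locks it onto hyaluronan to form aggregates. Matrilins (Matn1 and Matn3) and cartilage oligomeric matrix protein (Comp) are adaptors that tie collagen fibrils to each other and to proteoglycans, and loss of aggrecan from the matrix is a hallmark of osteoarthritis.

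The sequences of the study's aggrecan assay and of the start regions of both aggregate genes are given first, because aggrecan was among the cartilage markers the study assayed and Hapln1 was the gene whose levels followed it most closely. The primers are those the study used for quantitative PCR of aggrecan mRNA, in lower case throughout.
Acan forward: ctgaatgggagccagcctac
Acan reverse: gatgtggaagggacttgcga
Promoter windows, from 250 bases before to 50 bases after the annotated gene start, came from RefSeq on the GRCr8 assembly, in which 8 of the 10 genes were matched (Matn1 and Cnmd were not). Acan lies on the plus strand at chr1:142390701-142391000 and Hapln1 on the plus strand at chr2:22366717-22367016. Capitals mark GGGCGG, the GC box, in Acan and ACAAAG, a core of the sites that SOX proteins bind, in Hapln1, on either strand.
Acan promoter: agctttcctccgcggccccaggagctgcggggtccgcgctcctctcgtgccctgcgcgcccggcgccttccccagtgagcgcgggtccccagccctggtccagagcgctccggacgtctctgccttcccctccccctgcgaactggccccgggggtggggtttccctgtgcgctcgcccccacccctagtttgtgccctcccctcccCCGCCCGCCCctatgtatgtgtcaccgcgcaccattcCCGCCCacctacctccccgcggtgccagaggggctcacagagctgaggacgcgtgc
Hapln1 promoter: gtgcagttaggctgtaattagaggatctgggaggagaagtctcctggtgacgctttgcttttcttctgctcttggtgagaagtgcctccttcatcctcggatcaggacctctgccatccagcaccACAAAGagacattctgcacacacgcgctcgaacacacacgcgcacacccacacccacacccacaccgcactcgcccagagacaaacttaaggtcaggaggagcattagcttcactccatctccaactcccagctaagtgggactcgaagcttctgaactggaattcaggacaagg
The Acan window was 73% G and C and held GGGCGG 3 times on the minus strand, starting 43, 39, and 6 bases before the gene start, the first 2 of which overlap. The Hapln1 window was 53.7% G and C and held ACAAAG once, 125 bases before the start. Over 33469 rat promoter windows of this length, GGGCGG on either strand was present in 33.1%, and it was in 4 of the 8 windows here (Acan, Chad, Cilp2, and Matn3). ACAAAG was in 18.8% of all windows and in 1 of the 8. Its variant ACAATG was in 13.2% of all windows and in 0 of the 8. TATAAA, the TATA box, was in 14.2% of all windows and in 1 of the 8, that of Chad, 29 bases before its start. These are matches of letters and not measured binding.

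The libraries held 14914121 to 19510537 reads, recovered as whole reads from the FPKM values. The library size that scaled the FPKM values followed the non-mitochondrial reads and not all reads. It was 3.64e+06 in model 1, which had 18815977 reads, 1744769 of them non-mitochondrial. In control 1 it was 3.00e+07, with 14914121 reads, 14306782 of them non-mitochondrial. Mitochondrial genes took 4.05% to 4.86% of the reads in the controls, 39.5% to 90.7% in the model group, and 23.7% to 72.7% in the SYD-H group. The libraries labelled model 1, model 3, and SYD-H 3 were over 50% mitochondrial and kept 1744769, 3611325, and 5153851 other reads, against 11106680 to 17373645 in the remaining 6. The 10 matrix genes together had 1728 reads in model 3, 1805 in SYD-H 3, and 4120 in model 1, so single values in these libraries rest on few reads.

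Among the controls, all 10 matrix genes differed between libraries by more than most genes did. The control library 2 had the lowest level of the 3 controls for all 10 genes, and control 1 had the highest. Control 1 was 18.5 to 38.6 times as high as control 2, with a median of 30.5 over the genes, and control 3 was 12.3 to 24.9 times as high, whereas control 1 and control 3 differed by 1.09 to 2.47 times. The log2(FPKM + 1) of control 2 lay below the mean of the other controls by more than 3 for 9 of the 10 genes, and for 46 of all 13898 genes (0.331%). This library was not shallow, with 16113184 non-mitochondrial reads. Its marker sums for neutrophil and marrow genes (5778 FPKM against 2986 and 3873) and for erythroid genes (3890 FPKM against 1535 and 2005) were the highest of the controls, and its osteoblast sum was the lowest (4346 FPKM against 7103 and 8816). Their part in the low matrix levels was not tested. In bulk tissue, fewer chondrocytes and less RNA per chondrocyte cannot be told apart. Over the 10 genes the median range of log2(FPKM + 1) between the libraries of a group was 4.49 in the controls, 3.29 in the model group, and 3.24 in the SYD-H group, beside medians of 0.33, 1.49, and 0.71 over all tested genes. In the model group 6 of the 10 had a wider range than the median gene, and Comp, Hapln1, Matn3, and Matn1 had a narrower one. In the SYD-H group 9 had a wider range, and Matn1, at 0 throughout, did not.

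**Figure D1:**
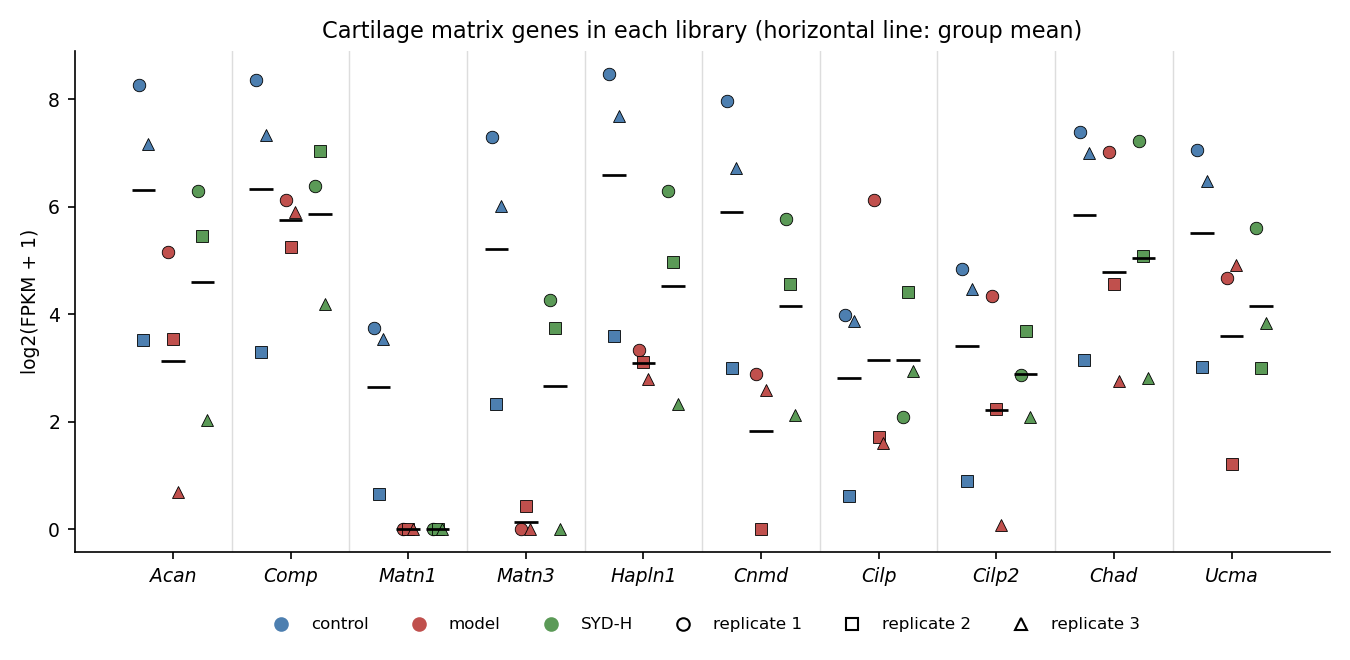
Level of each cartilage matrix gene as log2(FPKM + 1) on the vertical axis, with 1 point for each library and colours for the 3 groups. For all 10 genes the lowest control point is control 2, and the points of Matn1 lie at 0 in all 6 model and SYD-H libraries.

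Aggrecan mRNA was present in every library and differed many-fold between the libraries of each group. Acan (ENSRNOG00000028992, chromosome 1, 132981582 to 133043627 in the authors' table, plus strand) had 305, 10.4, and 143 FPKM in controls 1 to 3. It had 34.8, 10.7, and 0.629 FPKM in the model libraries and 77.8, 43.2, and 3.12 FPKM in the SYD-H libraries. The highest model value was below 2 of the 3 controls and above control 2, so the groups overlapped. The lowest value rests on 29 reads in model 3, against 63580 in control 1. Group means were 153 ± 148, 15.4 ± 17.6, and 41.4 ± 37.4 FPKM (SD, n = 3).

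Hapln1 (ENSRNOG00000032002, chromosome 2, 20631640 to 20693777, plus strand), the link protein that holds aggrecan on hyaluronan, had 355, 11.0, and 204 FPKM in the controls. Its model values were 9.15, 7.65, and 5.98 FPKM, all below the lowest control. The SYD-H values of 77.1, 30.4, and 4.02 FPKM overlapped with both other groups. The means were 190 ± 173, 7.59 ± 1.59, and 37.1 ± 37.0 FPKM (SD, n = 3), so the model libraries differed by far less than the controls.

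Matn1 (ENSRNOG00000010932, chromosome 5, 143117504 to 143127059, plus strand) encodes matrilin-1, a matrix adaptor of the matrilin family. It had 12.5, 0.590, and 10.7 FPKM in the controls, from 708, 41, and 795 reads, and 0 reads in all 3 model and all 3 SYD-H libraries. With 3 reads as the limit that a count of 0 allows in each library, it was at least 32.3-fold lower in model and at least 93.6-fold lower in SYD-H libraries than the control mean of 7.92 FPKM. The lowest control, at 0.590 FPKM, was above the highest of these limits, 0.437 FPKM in the model group and 0.138 FPKM in the SYD-H group. Such limits cover counting error only, because reads are not independent molecules. Set against aggrecan, the controls had 11.1, 15.4, and 20.4 Matn1 reads per 1000 Acan reads, control 2 included. In SYD-H 1 and SYD-H 2, the absence of reads allowed at most 0.209 and 0.353 per 1000, and in model 1 and model 2 at most 3.41 and 1.53. In model 3 and SYD-H 3 the Acan reads were too few for such a limit to differ clearly from the controls, at 103 and 12.05 per 1000.

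Matn3 (ENSRNOG00000056141, chromosome 6, 31748474 to 31768101, plus strand), the second matrilin, had 157, 4.06, and 63.5 FPKM in the controls. In the model group it had 0, 0.359, and 0 FPKM, the middle value from 19 reads. In the SYD-H group it had 18.2, 12.4, and 0 FPKM, so 2 of the 3 libraries lay above every model library and SYD-H 3 did not. The model values did not overlap with the controls.

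Comp (ENSRNOG00000048472, chromosome 16, 19047207 to 19055845, minus strand), a fibril adaptor also made by tendon and ligament cells, had 328, 8.91, and 161 FPKM in the controls. It had 69.0, 37.0, and 59.1 FPKM in the model group and 82.3, 129.9, and 17.3 FPKM in the SYD-H group. All 3 model values were above control 2 and below the other controls. The model mean was 55.0 ± 16.4 FPKM (SD, n = 3), beside 166 ± 160 in the controls and 76.5 ± 56.5 in the SYD-H group.

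Chad (ENSRNOG00000003304, chromosome 10, 79511931 to 79515940, plus strand) encodes chondroadherin, a leucine-rich repeat protein that binds collagen and chondrocyte integrins. It had 167, 7.88, and 127 FPKM in the controls, 128.9, 22.6, and 5.77 FPKM in the model group, and 149, 32.7, and 6.07 FPKM in the SYD-H group. Each group held high and low libraries, with overlap throughout.

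Cnmd (ENSRNOG00000012821, chromosome 15, 55041561 to 55066297, minus strand) encodes chondromodulin, which keeps vessels out of cartilage. Its levels were 249, 7.03, and 104 FPKM in the controls and 6.41, 0, and 4.996 FPKM in the model group, without overlap. The SYD-H levels were 54.0, 22.5, and 3.38 FPKM, of which 2 were above every model library. Ucma (ENSRNOG00000017987, chromosome 17, 73293978 to 73303611, minus strand), a small secreted cartilage protein that carries vitamin K-dependent Gla residues, had 132, 7.15, and 88.0 FPKM in the controls. It had 24.5, 1.33, and 29.2 FPKM in the model group and 47.6, 7.02, and 13.4 FPKM in the SYD-H group, and all 3 groups overlapped.

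Cilp (ENSRNOG00000029911, chromosome 8, 65777281 to 65792251, plus strand) encodes cartilage intermediate layer protein, found in the middle zone of articular cartilage. It was the only member with a higher mean FPKM in the model group than in the controls, and the single high model library was model 1. The controls had 14.8, 0.546, and 13.6 FPKM, the model libraries had 68.9, 2.28, and 2.04 FPKM, and the SYD-H libraries had 3.25, 20.2, and 6.71 FPKM. Its paralog Cilp2 (ENSRNOG00000020622, chromosome 16, 19539706 to 19547191, plus strand) had 27.7, 0.873, and 21.3 FPKM in the controls, 19.2, 3.74, and 0.0658 FPKM in the model group, and 6.31, 11.98, and 3.27 FPKM in the SYD-H group. Both genes were highest in model 1 among the model libraries, and the lowest Cilp2 value rests on 2 reads.

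Ordered by the median FPKM of the group, the controls ran from Hapln1 (204) through Comp (161), Acan (143), Chad (127), Cnmd (104), Ucma (88.0), and Matn3 (63.5) to Cilp2 (21.3), Cilp (13.6), and Matn1 (10.7). In none of the 9 neighbouring pairs were the library ranges apart. In the model group Comp led (59.1), above Ucma (24.5), Chad (22.6), Acan (10.7), Hapln1 (7.65), Cnmd (4.996), Cilp2 (3.74), and Cilp (2.28), with both matrilins at a median of 0. Here Comp lay above Ucma without overlap, and Cilp lay above the matrilins. In the SYD-H group Comp also led (82.3), followed by Acan (43.2), Chad (32.7), Hapln1 (30.4), Cnmd (22.5), Ucma (13.4), Matn3 (12.4), Cilp (6.71), and Cilp2 (6.31), and only Matn1 at the end was apart from its neighbour.

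The comparison of model with control asked how the surgery altered cartilage RNA. Matn3, Cnmd, Hapln1, and Matn1 were called lower in the model group, and the other 6 matrix genes were not called. A gene was called at an unadjusted p under 0.05 with an absolute log2 fold change over 1, from limma on log2(FPKM + 1). The fitted changes, with limma adjusted p-values, were −5.07 (SE 1.23, adjusted p = 0.0937) for Matn3, −4.07 (SE 1.42, adjusted p = 0.193) for Cnmd, −3.50 (SE 1.23, adjusted p = 0.198) for Hapln1, and −2.66 (SE 0.85, adjusted p = 0.166) for Matn1. The value of Matn1 depends on the added 1 and is no bound. Acan had a change of −3.17 (SE 1.56, limma adjusted p = 0.339), with an interval from −6.97 to 0.62. The share called was 4 of 10, all lower, beside 14.7% of all tested genes, 11.2% lower and 3.55% higher. The same 4 genes were those whose model libraries all lay below every control, which 20.0% of all genes did (8.65% lay above), and for each the exact permutation test gave p = 0.1, the smallest that 3 libraries against 3 can give. By limma 0 of the 10 reached an adjusted p under 0.05, as 2.59% of all genes did. The remaining changes were −1.92 for Ucma, −1.19 for Cilp2, −1.07 for Chad, −0.57 for Comp, and 0.32 for Cilp, the last turning to −2.34 under TPM, with limma adjusted p-values from 0.513 to 0.927.

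The call depended on single libraries. Without control 2, 7 of the 10 were called lower (7.50% of all genes in that fit), among them Acan at −4.57 (SE 1.35, limma adjusted p = 0.276) and Comp at −2.09. By limma 0 of the 10 reached an adjusted p under 0.05 there. Without control 1, control 3, model 2, or model 3, 1 of the 10 was called lower, beside 8.06%, 7.43%, 18.4%, and 10.6% of all genes, and without model 1, 2 were (Matn3 and Cnmd), beside 12.3%. The Acan change was −1.96 without model 3, its smallest value in these fits. Matn3 was called in each of these 6 fits. Without the libraries over 50% mitochondrial, which left 1 model library whose spread was assumed to be that of the other groups, 0 of the 10 were called lower, beside 13.2% of all genes, while the median change over the 10 was −2.71. The median over the 10 genes was −2.29 with every library, or −2.55 with Matn1 at its bound, beside −0.23 over all tested genes. After rescaling to TPM, in which mitochondrial transcripts take up the total, these medians were −4.86 and −2.60 and 9 of the 10 were called lower, all but Cilp, as were 74.9% of all genes. With voom on the recovered reads, Matn1 and Matn3 were still called, Hapln1 (−3.64, limma adjusted p = 0.255) and Cnmd (−5.64, limma adjusted p = 0.396) no longer were, and Acan was (−3.90, limma adjusted p = 0.189).

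**Figure D2:**
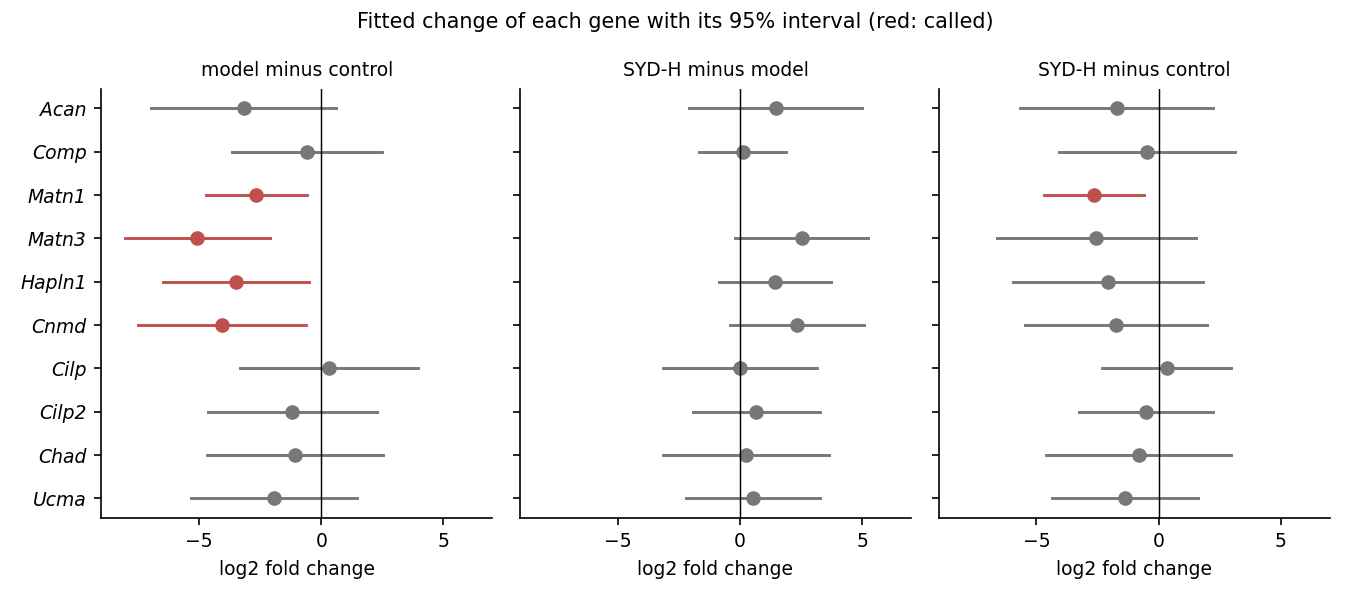
Fitted log2 fold change of each gene (horizontal axis, log2(FPKM + 1) scale) with its 95% interval, in 3 panels for model minus control, SYD-H minus model, and SYD-H minus control. Red marks called genes, which are Matn1, Matn3, Hapln1, and Cnmd in the first panel, none in the second, and Matn1 in the third, and no interval is drawn for Matn1 in the second because it is at 0 in all 6 libraries.

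The comparison of SYD-H with model asked whether the extract altered what the surgery had done. Matn1 was at 0 in all 6 libraries and has no fold, and of the other 9 genes 0 were called by limma (0 at an unadjusted p under 0.05), beside 4.15% of all tested genes, 3.62% higher and 0.532% lower. Nor were the libraries of any member apart, as those of 7.89% of all genes were in the higher and 3.17% in the lower direction. The largest fitted differences were 2.52 for Matn3 (interval −0.18 to 5.22, limma adjusted p = 0.723), 2.33 for Cnmd (−0.43 to 5.09, limma adjusted p = 0.723), 1.46 for Acan (−2.07 to 4.996, limma adjusted p = 0.759), and 1.44 for Hapln1 (−0.86 to 3.74, limma adjusted p = 0.723). These intervals reach from below 0 to many-fold increases, so the data show neither a difference nor its absence. For Comp the difference was 0.11 (−1.66 to 1.88), for Ucma 0.55, for Cilp2 0.66, for Chad 0.26, and for Cilp −0.00019. The median over the 9 genes was 0.66, beside 0.22 over all genes, and it was 0.25 without model 3 (0.22 over all genes), 1.57 without model 1 (0.12), and 2.21 under TPM (1.22). In the fit without SYD-H 3, 3 genes were called higher, namely Matn3 at 3.86 (limma adjusted p = 0.240), Cnmd at 3.34, and Hapln1 at 2.54, beside 3.32% of all genes. Other single libraries moved the values the other way, with Acan at 0.25 without model 3, Hapln1 at 0.56 without SYD-H 1, and Cnmd at 1.42 without model 2. Without the libraries over 50% mitochondrial, 3 were called as well, Acan, Matn3, and Cnmd, beside 2.63% of all genes and again with 1 model library.

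In SYD-H against control, which shares its libraries with both comparisons above, Matn1 was called lower at −2.66 (SE 0.83, limma adjusted p = 0.0798). It was 1 of 10, beside 16.5% of all genes in either direction and 9.22% lower, and 17.3% of all genes but 0 of the 10 reached an adjusted p under 0.05. It was also the only member whose SYD-H libraries all lay below every control, as 22.2% of all genes did. Matn3 differed by −2.55, Hapln1 by −2.05, Cnmd by −1.74, Acan by −1.71, Ucma by −1.37, Chad by −0.81, Cilp2 by −0.52, Comp by −0.47, and Cilp by 0.32 (−0.90 under TPM), with limma adjusted p-values from 0.325 to 0.856. Without control 2, 6 were called lower (Matn1, Matn3, Hapln1, Cnmd, Cilp2, and Ucma), beside 7.63% of all genes, and without any other single library 0 were, beside 8.43% to 9.86%. In those fits Matn1 stayed at −2.11 to −2.66. With voom it had a change of −8.34 and was not called (limma adjusted p = 0.211).

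**Figure D3:**
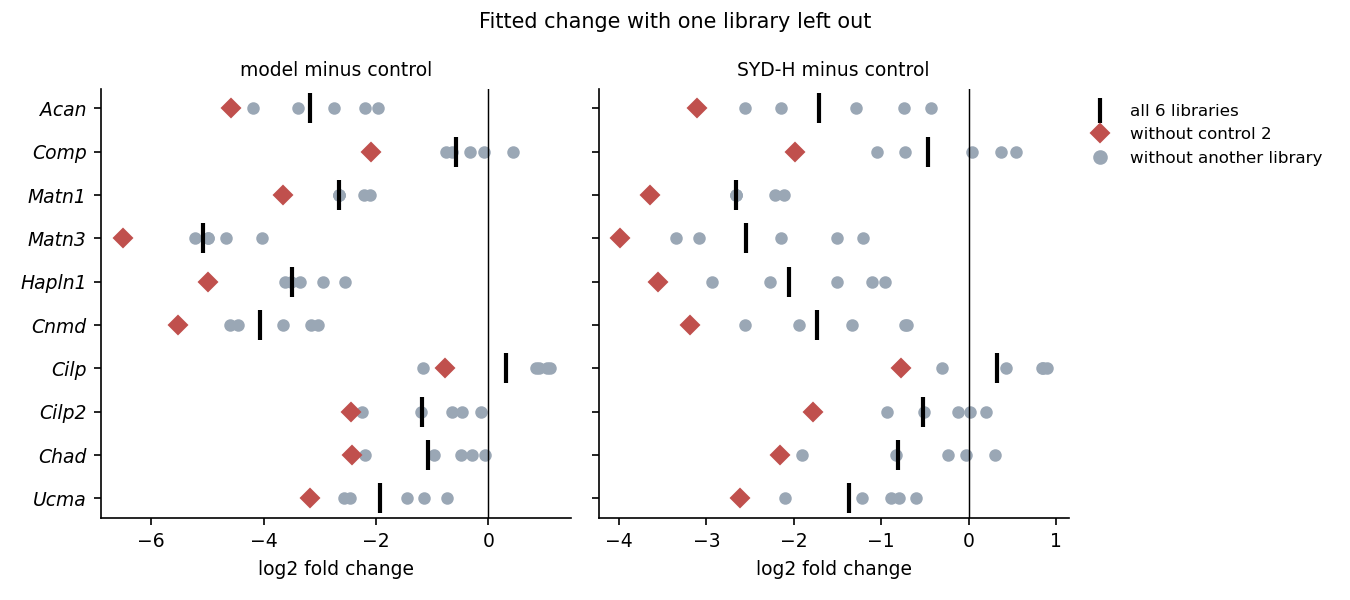
Fitted log2 fold change of each gene in the fits that leave out 1 library at a time, in 2 panels for model minus control and SYD-H minus control, with 1 point per fit, a diamond for the fit without control 2, and a black bar for the fit with all libraries. In model minus control the diamonds lie lower than the bars, with Acan at −4.57 in place of −3.17.

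The makeup of the matrix RNA was then compared as the share of each gene in the summed FPKM of the 10, a measure chosen after the data were seen. On this scale control 2 was far closer to the other controls than by level, where its sum was 58.5 FPKM against 1749 and 936. Acan took 15.2% to 17.8% of the sum in the controls, Hapln1 18.9% to 21.8%, Comp 15.2% to 18.8%, Cnmd 11.1% to 14.2%, and Matn3 6.78% to 8.96%. Chad took 9.57% to 13.6%, Ucma 7.56% to 12.2%, Cilp2 1.49% to 2.28%, Cilp 0.844% to 1.45%, and Matn1 0.714% to 1.14%. In the model group Comp took 39.0% ± 18.2 (SD, n = 3), against 17.1% ± 1.77 in the controls and 29.4% ± 13.0 in the SYD-H group. Hapln1 took 5.67% ± 3.20 in the model group and 10.6% ± 4.03 in the SYD-H group, against 20.3% ± 1.48, and Cnmd took 2.14% ± 2.34 and 7.87% ± 2.35, against 12.5% ± 1.61. Acan took 7.58% ± 6.22 and 11.5% ± 5.27, against 16.8% ± 1.399.

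Between model and control the shares of 7 of the 10 genes did not overlap. Those of Acan, Hapln1, Cnmd, Matn1, and Matn3 were lower in the model group, and those of Comp and Cilp were higher, each with an exact permutation p of 0.1, the smallest possible. For Comp the lowest model share, 19.1% in model 1, lay just above the highest control share, 18.8%. Scaled by the same sum, 5.35% of all tested genes did not overlap, 3.66% lower and 1.69% higher. The sum itself differed many-fold between the controls, and dividing by it adds that spread to genes whose levels do not follow the sum. These shares of all genes are therefore no fair background, and nothing is read from them. The same 5 genes had lower shares in SYD-H than in control without overlap, beside 4.32% of all genes, 1.68% lower and 2.63% higher. For Acan the highest SYD-H share, 15.1%, lay just below the lowest control share, 15.2%. Between SYD-H and model only Cnmd was apart, with a higher share in SYD-H (2.44% of all genes). Shares add up to 100%, so a higher share of one gene lowers the others. The shares in model 3 and SYD-H 3 rest on 1728 and 1805 reads.

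**Figure D4:**
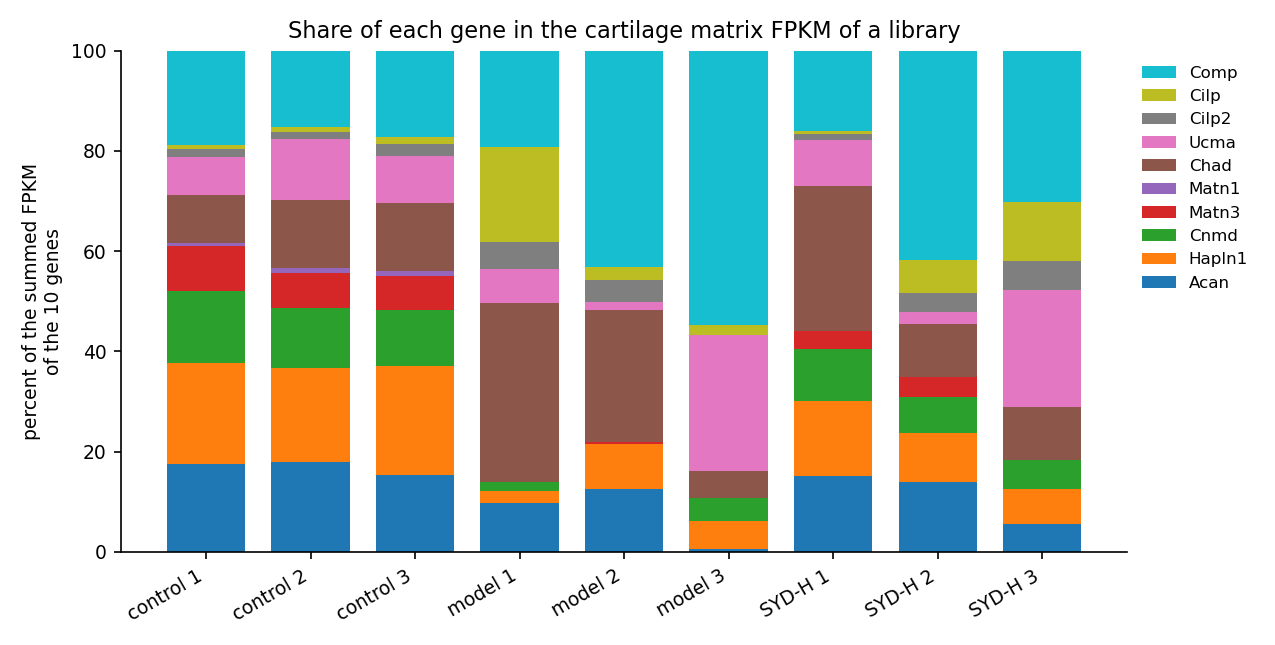
Share of each gene in the summed FPKM of the 10 matrix genes, in percent, as 1 stacked bar per library. In the 3 control bars Acan takes 15.2% to 17.8% and Hapln1 18.9% to 21.8%, and the Comp segment averages 39.0% of the bar in the model group against 17.1% in the controls.

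Many of the other chondrocyte markers were lower in the model group too. These 17 genes are the cartilage collagens, SOX factors, and growth plate genes. Their summed FPKM was 11482, 515, and 5894 in the controls, 819, 220, and 174 in the model group, and 2504, 806, and 230 in the SYD-H group, so control 2 was low here too. Of the 17, 9 were called lower in model against control (beside 11.2% of all genes) and 0 at an adjusted p under 0.05, with 12 called lower without control 2 (7.50% of all genes), 1 without the libraries over 50% mitochondrial (13.2%), and 16 under TPM (74.9%). Col2a1, the main cartilage collagen, had 8323, 348, and 4468 FPKM in the controls, 606, 39.0, and 56.1 in the model group, and 609, 430.5, and 42.4 in the SYD-H group, a model change of −4.40 (SE 1.53, limma adjusted p = 0.193). Col9a3, part of the collagen on the fibril surface, changed by −4.68 and Col11a2 by −2.37, and both were called. Col10a1, the collagen of hypertrophic chondrocytes, had a value of −3.002 and was not called (limma adjusted p = 0.312), nor was Cytl1 at −0.26. In SYD-H against model 2 of the 17 were called higher (Col11a2 and Sox5), beside 3.62% of all genes, and in SYD-H against control 2 were called lower (Col10a1 and Sox6), beside 9.22%. The first count was 6 under TPM (3.73% of all genes higher) and 4 without the libraries over 50% mitochondrial (2.63%). The second was 7 without control 2 (7.63% lower), 4 under TPM (42.5%), and 1 without the libraries over 50% mitochondrial (9.86%). Of these markers, 5 were at 0 in model 3, 4 in model 1, 3 in SYD-H 3, and 2 in model 2, and Sox5 was at 0 in every model library.

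Of the paralogs of the matrix genes and the genes of hyaluronan synthesis and binding, 14 of 19 passed the filter. In model against control 1 was called lower, beside 11.2% of all genes, namely Thbs1, a thrombospondin of the Comp family, at −2.66 (SE 0.68, limma adjusted p = 0.105). It had 75.4, 34.2, and 61.6 FPKM in the controls and 2.25, 16.9, and 10.5 in the model group, so for this gene control 2 was above every model library. Prelp, a proteoglycan that anchors basement membranes and collagen, had a value of 0.08 in this comparison. In SYD-H against model 0 of the 14 were called, and in SYD-H against control 2 were called higher (Tnmd and Has1, which makes hyaluronan), beside 7.25% of all genes. The calls of this list depended on the setting. In model against control, 6 of 14 were lower under TPM (74.9% of all genes), 2 without control 2 (7.50%), and 3 higher and 1 lower without the libraries over 50% mitochondrial (10.5% and 13.2%). In SYD-H against control, 0 were higher and 1 lower both without control 2 (5.23% higher and 7.63% lower of all genes) and under TPM (0.921% and 42.5%). In SYD-H against model 2 were higher without the libraries over 50% mitochondrial (2.63%).

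The genes of aggrecan turnover were the aggrecanases, stromelysin, collagenase, the protease Htra1, and their TIMP inhibitors. In the main test this list had the most called genes in SYD-H against control. Of 11, 8 were called higher there (beside 7.25% of all genes) and 5 reached an adjusted p under 0.05 (17.3% of all genes). Mmp3 (stromelysin-1) had 1.81, 0.119, and 1.22 FPKM in the controls and 24.7, 18.1, and 37.3 FPKM in the SYD-H group, a change of 3.80 (SE 0.42, limma adjusted p = 0.0087). Mmp13, the collagenase that cuts type II collagen, had 87.6, 54.4, and 106 FPKM in the controls and 737, 283, and 245 FPKM in the SYD-H group, a change of 2.21 (limma adjusted p = 0.0348). The inhibitor Timp1 rose by 2.14 (limma adjusted p = 0.0341) and Htra1 was called at 1.86 (limma adjusted p = 0.0569). In model against control 0 of the 11 were called, but without the libraries over 50% mitochondrial 6 were called higher (10.5% of all genes), and under TPM 3 were called lower (74.9%). In SYD-H against model 0 were called, and Mmp13 differed by 1.08 and Mmp3 by 1.58 (limma adjusted p = 0.723 for both). The counts in SYD-H against control depended on the setting. Under TPM 2 of the 11 were called higher (0.921% of all genes) and 1 passed an adjusted p under 0.05 (2652 of 13898 genes). Without control 2, 6 were called higher (5.23%) and 2 passed (592 genes). Without SYD-H 3, the only library over 50% mitochondrial here, 8 were called higher (8.86%) and 7 passed (3526 genes).

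Markers of other tissues moved between the groups as well, and their part in the matrix levels was not tested. Counts of called genes are to be read against the shares of all genes, which were 11.2% lower and 3.55% higher in model against control, 9.22% lower and 7.25% higher in SYD-H against control, and 3.62% higher in SYD-H against model. The osteoblast and osteocyte sum was 4346 to 8816 FPKM in the controls, 2129 to 12820 in the model group, and 12978 to 16361 in the SYD-H group, with 1 of 12 genes called lower in model against control and, in SYD-H against control, 3 called higher and 1 lower. The osteoclast sum was 616 to 1064, 450.2 to 1792, and 2010 to 2693 FPKM, with 1 of 8 genes called lower in model against control, 4 called higher in SYD-H against model, and 6 higher in SYD-H against control. The B cell sum was 294 to 389 FPKM in the controls, 18.5 to 58.3 in the model group, and 16.8 to 47.1 in the SYD-H group, with 7 of 9 genes called lower in each. Neutrophil and marrow genes summed to 2986 to 5778, 69.1 to 7991, and 539 to 3457 FPKM (3 of 8 called lower in model against control, 5 in SYD-H against control), and erythroid genes to 1535 to 3890, 52.7 to 7641, and 241 to 2323 FPKM (0 and 6 of 8 called lower). Synovial and tendon fibroblast genes summed to 105 to 322, 201 to 1329, and 528 to 2012 FPKM (1 and 7 of 12 called higher), and endothelial genes to 46.5 to 61.6, 27.1 to 278, and 129.8 to 169 FPKM (2 and 6 of 9 called higher). Macrophage sums were 132 to 173, 81.7 to 225, and 142 to 298 FPKM (0 and 0 of 8 called), adipocyte sums 71.9 to 106, 41.3 to 183, and 69.9 to 429.9 FPKM (0 and 1 of 8), and skeletal muscle sums 21.6 to 367, 39.8 to 1099, and 35.4 to 1261 FPKM (1 and 0 of 11). In SYD-H against model, 1 neutrophil and 1 macrophage gene were called higher, and 0 genes of the other lists of this paragraph apart from the osteoclast genes.

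**Figure D5:**
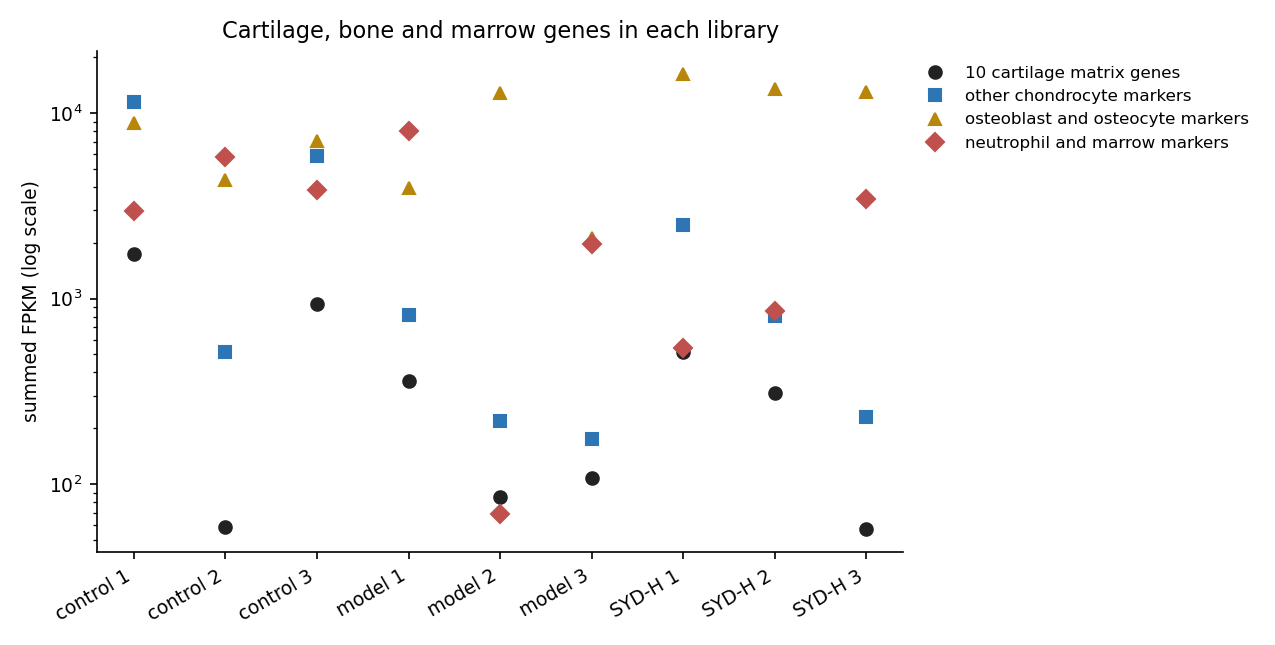
Summed FPKM (vertical log axis) in each of the 9 libraries for the 10 cartilage matrix genes, 17 other chondrocyte markers, osteoblast and osteocyte markers, and neutrophil and marrow markers, with 1 point per library and list. The matrix sum of control 2 is 58.5 FPKM against 1749 and 936 in the other controls, and in model 2 the neutrophil and marrow sum is 69.1 FPKM where the osteoblast sum is 12820.

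The genes whose levels were most like each matrix gene were found as those with the smallest mean absolute difference of log2(FPKM + 1), centred per gene, over the 9 libraries. For Acan the closest of all tested genes was Hapln1 (0.66), its partner in the aggregate, followed by Il17b (0.77), Mia (0.82), Scrg1 (0.85), and Crispld1 (0.86), and 6 of the other 9 members were among its 50 closest genes. For Comp the closest were Fmod (0.40), Prelp (0.45), Anxa8 (0.57), Meltf (0.59), and Ecrg4 (0.62), of which Fmod (fibromodulin) and Prelp are small proteoglycans of collagen fibrils, and 1 member was among the 50. The 9 libraries share the groups and the low level of control 2, so these are descriptions. Chad and Cilp2 were close to each other, with Cilp2 the closest gene of all to Chad. Matn1 had no member among its 50 closest genes, and its closest member, Hapln1, ranked 1456.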

How the data were processed

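The authors deposited a single table of FPKM values, by gene and library, that also holds gene lengths and positions. Its 9 columns of values were matched to the samples by library name. These names begin with NOR for control, MOD for model, and CXTB for SYD-H, and the groups were taken from the sample titles. HISAT2 2.0.5 and the build hg38 are named in the submitters' processing notes, although the gene identifiers are those of rat. The rat build behind the positions, the counting tool, and the annotation release are not given in the sources used here. Total RNA was made into TruSeq libraries, per the labels.

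Values were whole multiples of the FPKM of 1 read in 100% of cases (tolerance 0.1), which gave the reads per library. The limit for a gene at 0 was 3 reads. The main test was limma 3.58.1 in R 4.3.3 (lmFit and eBayes with a mean trend, two-sided) on log2(FPKM + 1), with only the 6 libraries of each comparison in the fit, and adjusted by Benjamini-Hochberg over the 13898 genes with a mean of at least 0.5 FPKM. The study names no tool for its own test, and the thresholds for a call were taken from it. Single genes were also compared by exact permutation of mean FPKM. The procedure was tested on simulated data. Alternatives were a pseudocount of 0.1, no filter or a mean of at least 1 FPKM, TPM, scaling over non-mitochondrial genes, quantile normalization, all 9 libraries in one fit, the replicate number as a block, voom on the recovered reads, a call by adjusted p, and leaving out each library. The fits without libraries over 50% mitochondrial, and the repeats for the lists of chondrocyte, paralog, and turnover genes, were added after the data were seen.

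The 10 genes and the 13 gene lists were chosen with earlier results of these data known. Named genes were the 10, the 5 closest to Acan and to Comp, and up to 5 of each list by mean FPKM. Sox5, Sox6, Tnmd, and Has1 were named outside this rule, after their values were seen. The genes Hba-a2, Mylpf, Myh1, and Tnxb of the lists were not analysed here.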

Additional observations from a re-analysis of the deposited data

How the results depend on the processing

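With all libraries, 4, 0, and 1 of the 10 genes were called in model against control, SYD-H against model, and SYD-H against control. A pseudocount of 0.1, either other filter, non-mitochondrial scaling, quantile normalization, and the fit of all 9 libraries left these counts as they were. TPM gave 9, 2, and 1 (beside 74.9% lower, 3.73% higher, and 42.5% lower of all genes), voom on recovered reads 3 (Acan, Matn1, and Matn3), 2 (Matn3 and Ucma), and 0 (17.8% lower, 7.16% higher, and 12.6% lower), and leaving out the libraries over 50% mitochondrial 0, 3, and 0. By adjusted p, 0 of the 10 were called in each comparison with all libraries, beside 360, 0, and 2407 of all 13898 genes. Under TPM 9, 0, and 1 of the 10 passed, beside 9673, 0, and 2652 of all genes. In SYD-H against control Matn1 also passed with a pseudocount of 0.1 (limma adjusted p = 0.0350), with non-mitochondrial scaling (0.0456), and without control 2 (0.0227). Of all 13898 genes, 2160, 2093, and 592 passed in those fits. Leaving out 1 library gave 1 to 7, 0 to 3, and 0 to 6 genes called at an unadjusted p. Under TPM the median of all genes shifted to −2.60, 1.22, and −1.31.

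No source used here states whether the replicate numbers pair the libraries. Deviations of same-numbered libraries correlated at −0.27 to 0.19 over 9 pairs, and 1 of 9 libraries correlated best with its own number. Because each group had only 3 libraries, these correlations cannot show whether the libraries were paired. With the replicate block, 6, 2, and 1 genes were called (9.29% lower, 3.25% higher, and 9.26% lower of all genes), and 0 of all genes passed an adjusted p under 0.05 by limma.

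Directions turned only for genes that were not called with all libraries. For Cilp, model minus control was −2.34 under TPM, −0.72 with voom, and −1.11 without the libraries over 50% mitochondrial. Its SYD-H minus model value, −0.00019 as fitted, was 0.13 with a pseudocount of 0.1, 1.44 under TPM, 0.31 with non-mitochondrial scaling, 0.023 with quantile normalization, 1.35 with voom, and 1.54 without those libraries, and its SYD-H minus control value was −0.90 under TPM. Without those libraries, SYD-H minus control was 0.37 for Comp and 0.30 for Chad. Leaving out 1 library moved model minus control over −2.09 to 0.44 for Comp and −1.17 to 1.10 for Cilp. It moved SYD-H minus model over −0.47 to 0.94 for Comp, −0.77 to 1.49 for Cilp, −0.40 to 1.72 for Cilp2, −0.83 to 1.38 for Chad, and −0.64 to 1.21 for Ucma. It moved SYD-H minus control over −1.98 to 0.55 for Comp, −0.78 to 0.90 for Cilp, −1.78 to 0.19 for Cilp2, and −2.16 to 0.30 for Chad. The cause of these turns was not tested. The lowest Acan and Cilp2 values, in model 3, rest on 29 and 2 reads.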
